A study of Mus musculus with 6 samples.

Results

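The 33 genes described here encode the machinery that displays peptides on cell surfaces, and they were taken by name from the 49315 genes counted in 6 RNA libraries of mouse cerebral cortex. They comprise 8 class I molecules, 8 genes of class I peptide supply and loading, 3 inducible and 3 constitutive proteasome subunits, 2 subunits of a proteasome activator, 6 class II genes and 3 transcriptional regulators. All 33 had enough counts to be tested. They were chosen by gene name and known role, with earlier results of these data known. All mice were labelled wild type and received an AAV-PHP.eB vector at 21 days of age, followed from 4 months of age by 3 weekly doses of lipopolysaccharide (LPS, a bacterial cell wall component) at 1 mg/kg. Cortex was collected 24 h after the final injection. The 3 shScr libraries came from mice given AAV-PHP.eB-Gfap-GFP-shScr, which carries a scrambled shRNA, and the 3 shFabp7 libraries from mice given AAV-PHP.eB-Gfap-GFP-shFABP7, which carries an shRNA against Fabp7, the brain fatty acid-binding protein gene. The Gfap promoter aims the shRNA at astrocytes, while the RNA came from all cells of the tissue. Both groups had LPS and a vector, so the comparison is between shRNAs, and neither the effect of LPS nor that of the vector was measured.

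Class I molecules pair a heavy chain (H2-K1, H2-D1 and the H2-Q, H2-T and H2-M genes) with beta-2 microglobulin and show peptides from inside the cell to CD8 T cells. Proteasomes cut proteins into those peptides, and interferon exchanges their catalytic subunits Psmb5, Psmb6 and Psmb7 for Psmb8, Psmb9 and Psmb10, which gives the immunoproteasome. The Tap1-Tap2 transporter carries the peptides into the endoplasmic reticulum, where chaperones load them. Class II molecules show peptides from endosomes to CD4 T cells and in brain are made mainly by microglia, macrophages at its borders and other myeloid cells. Interferon-gamma raises both systems, through Nlrc5 for class I and Ciita for class II.

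Libraries held 16914012 to 18991235 counts. Fabp7 had 484, 285 and 290 reads with shScr and 93, 41 and 66 with shFabp7 (values are given throughout in the order of libraries 1, 2 and 3), so the targeted gene was lower in every library labelled shFabp7. Its log2 fold change, the base-2 logarithm of shFabp7 over shScr, was -2.31 with a standard error (SE) of 0.35 and an edgeR adjusted p of 0.0704. Astrocyte markers summed to 4630 to 5380 CPM (CPM are read counts scaled to a library of 1000000). Markers of cortical excitatory neurons summed to 3841 to 5104 CPM in shScr and 5561 to 6351 CPM in shFabp7, without overlap, and all 6 had values above 0 with a median log2 fold change of 0.44. Choroid plexus and ependyma markers summed to 17.4, 12.4 and 26.6 CPM in shScr and 15.4, 8.70 and 10.1 CPM in shFabp7. All 5 tested lay below 0, with a median of -0.58. At an unadjusted edgeR p under 0.05, 3 of these were lower, where 8.32% of all genes were lower. At that level 2 of the excitatory neuron markers were higher, where 8.44% of all genes were higher. The part of these differences in the values of the antigen presentation genes was not tested. Hippocampal neuron markers stood apart in shScr libraries 1 and 3, with 244 and 241 CPM against 112 to 135 CPM in the other 4 libraries. By Xist against 4 Y-linked genes, shScr libraries 1 and 2 and shFabp7 library 1 read as male and the other 3 as female. In shFabp7 library 2 the Y-linked genes summed to 13.2 CPM, against 1.49 and 1.90 CPM in the other female libraries. Whether each library came from its own mouse is not stated. Each group held libraries of both sexes and so more than 1 mouse. The p-values rest on the spread between libraries, which may be partly technical.

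Of the 33 genes, 17 lie on chromosome 17, in and near the major histocompatibility complex, and the others lie on 9 other chromosomes. Psmb9, Tap1, Psmb8 and Tap2 sit side by side on chromosome 17 from 34181988 to 34216321, and Tap1 and Psmb9 are read away from each other from starts 226 bases apart in RefSeq (GRCm38.p6). The promoters shown are those of the most abundant class I heavy chains (H2-K1 and H2-D1), of the class I gene with the lowest p (H2-Q4), and of Tap1 and Psmb8. The groups overlapped for H2-K1 and H2-D1 and did not for H2-Q4, Tap1 and Psmb8, while each of these genes had a lower mean level in shFabp7. Each runs from 250 bases before to 50 bases after the RefSeq start, 5′ to 3′ on the gene's strand. Capitals mark matches to any of 5 motifs, searched on both strands: an interferon-stimulated response element (GAAA, NN, then GAAA), a gamma-activated sequence (TTCNNNGAA), a CCAAT box (CCAAT), a CRE half-site (TGACG) and the kappa-B consensus. Overlapping matches, such as the kappa-B consensus read on both strands, run together in capitals.
H2-K1, chr17:34000284-34000583, minus strand: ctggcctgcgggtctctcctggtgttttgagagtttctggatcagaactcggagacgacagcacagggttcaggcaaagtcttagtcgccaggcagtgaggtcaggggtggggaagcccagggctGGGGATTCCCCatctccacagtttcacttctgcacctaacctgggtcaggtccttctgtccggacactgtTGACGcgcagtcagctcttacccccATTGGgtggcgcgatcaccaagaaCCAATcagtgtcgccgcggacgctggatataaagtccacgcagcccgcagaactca
H2-D1, chr17:35262844-35263143, plus strand: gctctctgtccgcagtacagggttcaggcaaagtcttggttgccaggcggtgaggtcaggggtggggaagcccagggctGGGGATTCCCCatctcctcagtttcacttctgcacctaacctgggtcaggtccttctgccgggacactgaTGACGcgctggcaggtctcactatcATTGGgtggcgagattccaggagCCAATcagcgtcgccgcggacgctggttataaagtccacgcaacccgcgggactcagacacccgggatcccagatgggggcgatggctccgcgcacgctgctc
H2-Q4, chr17:35379367-35379666, plus strand: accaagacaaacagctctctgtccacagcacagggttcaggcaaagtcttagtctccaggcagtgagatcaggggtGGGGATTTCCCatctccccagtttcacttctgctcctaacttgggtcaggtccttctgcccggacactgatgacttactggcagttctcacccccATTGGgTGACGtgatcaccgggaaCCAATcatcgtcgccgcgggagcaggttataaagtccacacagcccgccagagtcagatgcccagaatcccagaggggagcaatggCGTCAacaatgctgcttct
Tap1, chr17:34187306-34187605, plus strand: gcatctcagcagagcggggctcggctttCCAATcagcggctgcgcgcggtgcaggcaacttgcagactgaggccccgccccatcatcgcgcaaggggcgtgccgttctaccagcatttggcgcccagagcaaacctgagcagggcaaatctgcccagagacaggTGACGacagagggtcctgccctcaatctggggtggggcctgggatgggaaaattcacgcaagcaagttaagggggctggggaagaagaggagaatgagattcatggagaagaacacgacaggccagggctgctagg
Psmb8, chr17:34197945-34198244, plus strand: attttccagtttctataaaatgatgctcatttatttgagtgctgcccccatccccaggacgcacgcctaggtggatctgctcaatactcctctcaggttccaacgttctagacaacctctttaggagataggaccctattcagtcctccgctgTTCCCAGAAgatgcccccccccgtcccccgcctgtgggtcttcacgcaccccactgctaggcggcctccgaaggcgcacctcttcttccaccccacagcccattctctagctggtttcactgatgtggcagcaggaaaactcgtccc

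The promoters of H2-K1, H2-D1 and H2-Q4 each held a kappa-B match upstream of their CRE half-sites and CCAAT boxes. In H2-K1 and H2-D1 the CRE half-site came before both CCAAT boxes, while in H2-Q4 it lay between them and a further CRE half-site lay past the start. The Tap1 window shares 275 of its 300 bases with the Psmb9 window, read on the other strand, so the same CCAAT box and CRE half-site count for both genes. The table held promoters of 26 of the 33 genes. All 8 class I molecules in it had a CCAAT box, which 37.4% of all 32851 promoters hold, and 7 of the 8 had a kappa-B match, which 8.46% hold. CRE half-sites were in 6 of the 8, against 20.8% of all promoters. The response element was in 4 of the 26 promoters (B2m, Erap1, H2-T23 and Psme1), against 3.44% of all promoters, and the gamma-activated sequence in 2 (H2-M3 and Psmb8), against 8.30%. These are matches of letters in a window and not measured binding sites.

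None of the 33 genes passed the threshold in edgeR's quasi-likelihood test (adjusted p over all 17185 genes tested of 0.126 to 0.996), where 0.116% of all genes passed (0.0582% with lower levels in shFabp7). DESeq2 also called 0 of them, and 4.11% of all genes. At an unadjusted p under 0.05 there were 7, all with lower levels in shFabp7 (21.2%), where 8.32% of all genes were lower and 8.44% higher at that level. They were Psme2, Psmb8, Tap1, H2-Q4, Psme1, Tapbp and Psmb9. The lower count was 4 without shFabp7 library 2, with 1 higher, where 4.77% of all genes were lower. It was 10 without shScr library 1, with 0 higher, where 6.89% of all genes were lower. DESeq2 gave 6 lower and 1 higher, where 4.08% of the 30932 genes with a p were lower. A total of 26 of the 33 values lay below 0, against 51.5% of all genes, and the median log2 fold change (shFabp7 minus shScr) was -0.14, against -0.0065 over all genes. The groups did not overlap for 5 genes that were lower (H2-Q4, Tap1, Psmb8, Psme2 and Nlrc5; 15.2%, against 11.5% of all genes) and for 1 that was higher (Pdia3; 3.03%, against 11.4%). Over all genes, 22.9% had groups that did not overlap in either direction. In bulk tissue, fewer cells of a type and less RNA per cell cannot be told apart.

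**Figure D1:**
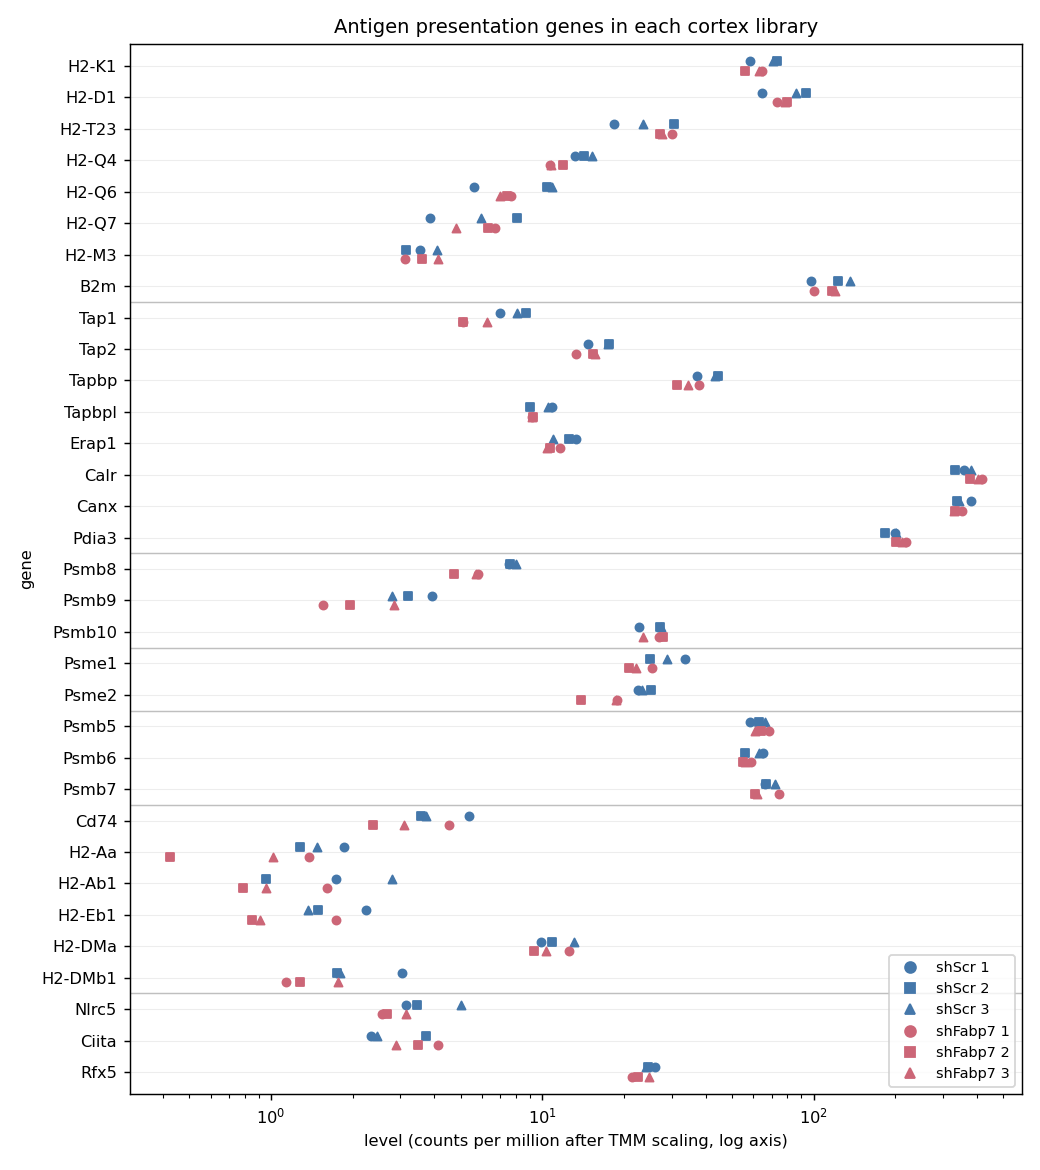
Level of each of the 33 genes in each library, in CPM after TMM scaling on a log axis. Blue marks are shScr and red marks shFabp7, the shape gives the library number, and grey lines part the gene groups. Tap1, Psmb8, Psme2, H2-Q4 and Nlrc5 are the genes whose red marks all lie left of the blue ones, while class I heavy chains and B2m overlap apart from H2-Q4.

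Among class I molecules, B2m, the light chain shared by the class I heavy chains, had levels of 98.1, 122.9 and 136 CPM with shScr and 100.4, 116.8 and 119.6 CPM with shFabp7. H2-K1, a classical heavy chain that presents to CD8 T cells, had 58.1, 73.5 and 70.8 CPM in shScr and 64.5, 56.1 and 63.0 CPM in shFabp7. H2-D1, the other classical heavy chain, had 64.7, 93.6 and 85.8 CPM in shScr and 73.5, 79.9 and 78.5 CPM in shFabp7. The groups overlapped in all 3 genes, and shScr library 1 was the lowest of the 6 libraries for B2m and H2-D1. Log2 fold changes were -0.08 (SE 0.12) for B2m, -0.14 (SE 0.10) for H2-K1 and -0.07 (SE 0.13) for H2-D1.

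H2-Q4, a class I gene of the Q region, was the class I molecule whose groups did not overlap. It had 13.2, 14.3 and 15.2 CPM in shScr and 10.7, 11.9 and 10.8 CPM in shFabp7, so every shFabp7 library lay below every shScr library. Its mean level was 14.2 ± 1.03 CPM in shScr and 11.1 ± 0.682 CPM under shFabp7 (n = 3 each, SD), for a log2 fold change of -0.35 (SE 0.11) with an edgeR adjusted p of 0.173. The H2-Q4 exons overlap Gm11131 on the opposite strand over 496 bases (19.1%), and 21.8% of the 50-base runs in its transcripts also occur in other genes.

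H2-Q6 and H2-Q7, neighbouring Q-region genes of the Qa-2 type, had the largest SD of the class I molecules among shScr libraries, relative to the mean. H2-Q6 had 5.61, 10.4 and 10.9 CPM in shScr and 7.65, 7.42 and 6.99 CPM in shFabp7. H2-Q7 had 3.86, 8.03 and 5.95 CPM in shScr and 6.69, 6.32 and 4.80 CPM in shFabp7. In both, shScr library 1 was the lowest of all 6. Of their 50-base runs, 32.0% and 26.4% occur in other genes, so reads may have been lost or assigned to a near copy.

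H2-T23, which encodes the non-classical molecule Qa-1, had 18.3, 30.6 and 23.4 CPM in shScr and 30.1, 27.2 and 27.6 CPM in shFabp7, for a log2 fold change of 0.23 (SE 0.17). H2-M3, which presents formylated peptides, had 3.11 to 4.11 CPM in all 6 libraries and a log2 fold change of 0.01 (SE 0.20). Summed over the 8 class I molecules, levels were 265, 356 and 352 CPM in shScr and 297, 309 and 315 CPM in shFabp7. The shFabp7 libraries thus lay between shScr library 1 and the other shScr libraries. The median of the 8 log2 fold changes was -0.08, but -0.23 when shScr library 1 was left out and -0.27 with both it and library 3 left out. The endothelial markers, whose summed level was 297 to 388 CPM in shScr and 355 to 365 CPM in shFabp7, were also lowest in shScr library 1. So were the summed markers of astrocytes, excitatory neurons, oligodendrocytes, dendritic cells, B cells, and T and NK cells. The other marker lists were lowest in a shFabp7 library. The part of these cell types in the class I values was not tested.

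The ratio of heavy chains to their light chain overlapped between the groups. Reads per kilobase of exon, summed over the 7 heavy chains and divided by those of B2m, were 0.568, 0.627 and 0.530 in shScr and 0.644, 0.545 and 0.544 in shFabp7. The means were 0.575 ± 0.0488 and 0.578 ± 0.0573 (SD, n = 3 each).

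Genes of peptide supply differed among themselves. Tap1, which with Tap2 forms the peptide transporter, had 6.97, 8.72 and 8.08 CPM in shScr and 5.08, 5.11 and 6.25 CPM in shFabp7, without overlap. The mean in shFabp7 was 69.2% of that in shScr, with a log2 fold change of -0.53 (SE 0.16) and an edgeR adjusted p of 0.162. Its partner Tap2 had 14.7, 17.6 and 17.5 CPM in shScr and 13.3, 15.4 and 15.7 CPM in shFabp7, for a log2 fold change of -0.17 (SE 0.11). Per kilobase, the ratio of Tap1 to Tap2 was 0.326, 0.342 and 0.319 in shScr and 0.264, 0.229 and 0.275 in shFabp7, so the groups did not overlap in this ratio either. The difference between the partners was not tested.

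Tapbp encodes tapasin, which holds class I molecules at the transporter, and its levels were 37.1, 44.5 and 43.2 CPM in shScr and 37.7, 31.3 and 34.4 CPM in shFabp7. Its log2 fold change was -0.27 (SE 0.10), and shFabp7 library 1 lay above shScr library 1. The tapasin relative Tapbpl and the peptide-trimming enzyme gene Erap1 had log2 fold changes of -0.14 and -0.17. The general chaperones of the endoplasmic reticulum were by far the most abundant genes of this set. Calr, which encodes calreticulin, averaged 358 ± 24.3 CPM in shScr and 399.9 ± 20.2 CPM under shFabp7 (n = 3 each, SD), for a log2 fold change of 0.16 (SE 0.07). Pdia3, an oxidoreductase of the loading complex, had 199, 184 and 201 CPM in shScr and 218, 201 and 213 CPM in shFabp7, and was the gene whose groups did not overlap with shFabp7 higher, though by a log2 fold change of 0.11 (SE 0.06). Canx, the membrane chaperone calnexin, had -0.07 (SE 0.07).

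**Figure D2:**
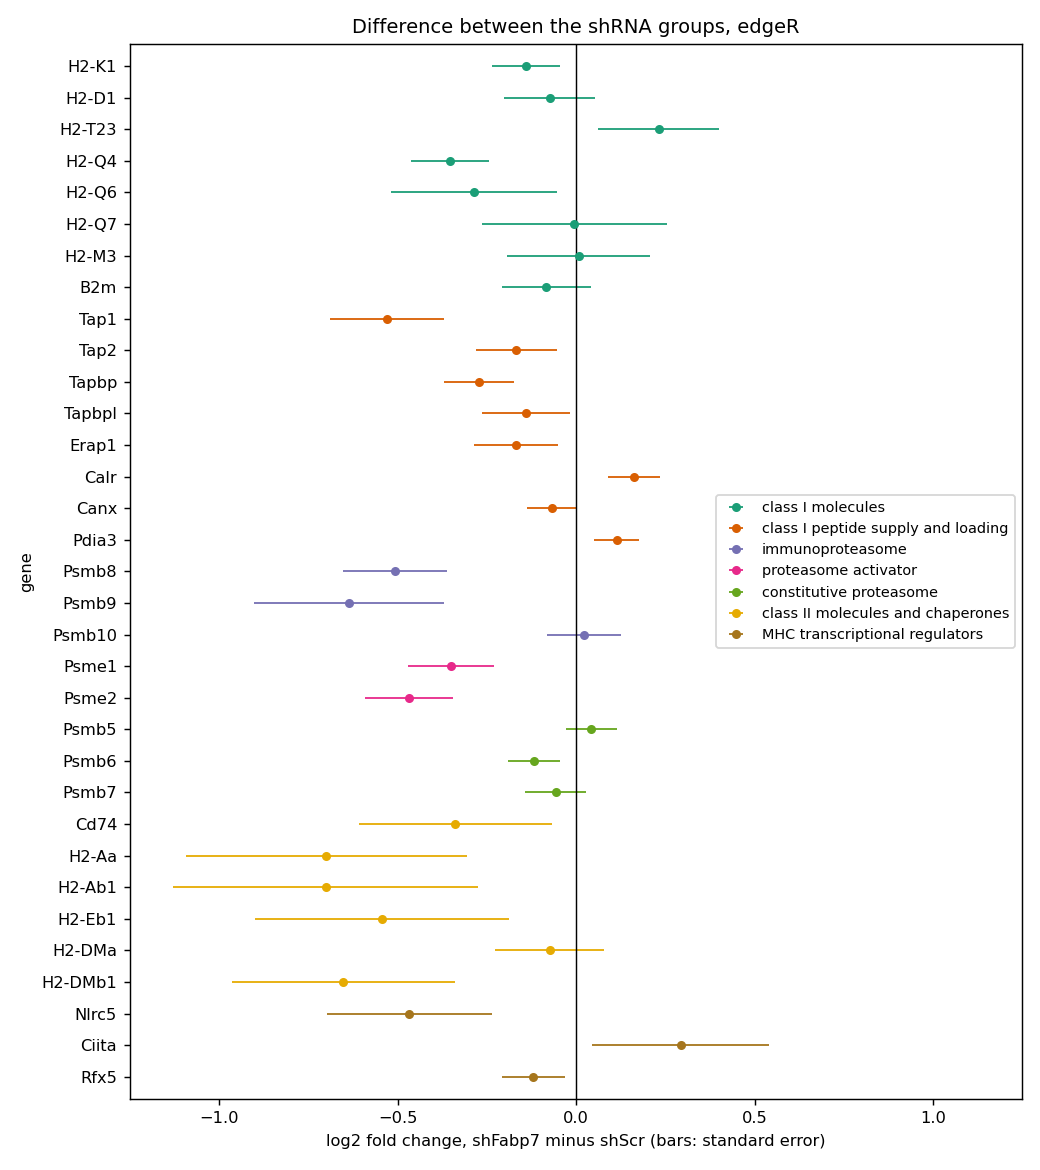
Log2 fold change of each gene between the groups (shFabp7 minus shScr, edgeR), with bars for 1 standard error and colours for the gene groups. Tap1, Psmb8, Psmb9 and the class II genes H2-Aa, H2-Ab1, H2-Eb1 and H2-DMb1 have values below -0.5, the class II surface chains with the longest bars, while Psmb10 and the 3 constitutive subunits lie between -0.12 and 0.04.

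The 3 inducible proteasome subunits differed in their values, and 0 of them passed the test. Psmb8, which takes the place of Psmb5, had 7.51, 7.61 and 8.02 CPM in shScr and 5.80, 4.74 and 5.71 CPM in shFabp7. The shScr libraries lay close together and all above the shFabp7 libraries, at means of 7.71 ± 0.272 and 5.42 ± 0.585 CPM (SD, n = 3 each). The log2 fold change of Psmb8 was -0.51 (SE 0.15), with an edgeR adjusted p of 0.151 that over the alternatives ran from 0.0748 to 0.480.

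Psmb9, which takes the place of Psmb6, had 72, 60 and 51 reads in shScr and 26, 32 and 53 in shFabp7. Its levels were 3.92, 3.19 and 2.78 CPM against 1.55, 1.95 and 2.83 CPM, so shFabp7 library 3 lay within the shScr range. The log2 fold change was -0.64 (SE 0.27), with an edgeR adjusted p of 0.273. Tap1 and Psmb9 share 212 bases of exon sequence on opposite strands (5.79% of the Psmb9 exons), so a few reads of each may be those of the other.

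Psmb10, which takes the place of Psmb7, was the most abundant inducible subunit, with 22.7, 27.1 and 27.3 CPM in shScr and 27.0, 27.9 and 23.5 CPM in shFabp7. Its log2 fold change was 0.02 (SE 0.10), and its sign turned in 4 of the 15 alternatives. It lies on chromosome 8 from 105935735 to 105938444, away from the other inducible subunits.

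The constitutive subunits overlapped in every case. Psmb5 had 58.3, 62.7 and 66.5 CPM in shScr and 68.4, 63.9 and 60.9 CPM in shFabp7, and its log2 fold change was 0.04 (SE 0.07). Psmb6 had 65.2, 56.0 and 63.0 CPM in shScr and 59.0, 54.9 and 55.8 CPM in shFabp7, a value of -0.12 (SE 0.07). Psmb7 had 66.3, 66.8 and 72.1 CPM in shScr and 74.7, 60.9 and 61.8 CPM in shFabp7, a value of -0.06 (SE 0.09). Of the 50-base runs of Psmb5, 46.8% also occur in Gm3375, so its level is uncertain. The sign of Psmb5 turned without shScr library 1 or shFabp7 library 1, and that of Psmb6 without shScr libraries 1 and 3.

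Set against the subunit it replaces, per kilobase of exon, Psmb8 stood at 0.0410, 0.0386 and 0.0384 of Psmb5 in shScr and at 0.0270, 0.0236 and 0.0299 in shFabp7. The ratio of group means, shFabp7 over shScr, was 0.682, and it ran from 0.643 to 0.723 with each library left out in turn. Psmb9 stood at 0.0307, 0.0292 and 0.0226 of Psmb6 in shScr and at 0.0135, 0.0181 and 0.0259 in shFabp7, with overlap. Psmb10 stood at 0.686, 0.815 and 0.760 of Psmb7 in shScr and at 0.724, 0.919 and 0.763 in shFabp7. Without division by length, the values for Psmb10 were 0.342, 0.406 and 0.379 in shScr and 0.361, 0.458 and 0.380 in shFabp7. The length of each gene covers all its annotated exons, so the level of a ratio depends on the exons counted. Psmb10 made up most of the inducible sum, and the sum of the 3 inducible over the 3 constitutive subunits overlapped between groups, at 0.151 ± 0.00993 and 0.145 ± 0.00839 (SD, n = 3 each). These ratios are independent of library scaling and were given no test.

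The activator PA28, a ring that opens the proteasome and is itself induced by interferon-gamma, had the lowest p of the set in its subunit Psme2. Psme2 had 22.6, 25.2 and 23.3 CPM in shScr and 18.8, 13.9 and 18.6 CPM in shFabp7, without overlap. Its log2 fold change was -0.47 (SE 0.12), with an edgeR adjusted p of 0.126. Psme1, the other subunit, had 33.6, 24.9 and 28.8 CPM in shScr and 25.3, 20.9 and 22.2 CPM in shFabp7, for a log2 fold change of -0.35 (SE 0.12) that was -0.13 without shScr libraries 1 and 3. With no filter on low counts, Psme2, Psme1 and Tapbp passed in edgeR (adjusted p of 0.00131, 0.0154 and 0.0437), in a fit that called 5.23% of all genes (2.66% lower in shFabp7). Per kilobase, the 2 activator subunits summed to 0.231, 0.210 and 0.200 of the constitutive subunits in shScr and to 0.168, 0.144 and 0.175 in shFabp7. Of the 50-base runs of Psme2, 28.3% occur in the copy Psme2b.

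**Figure D3:**
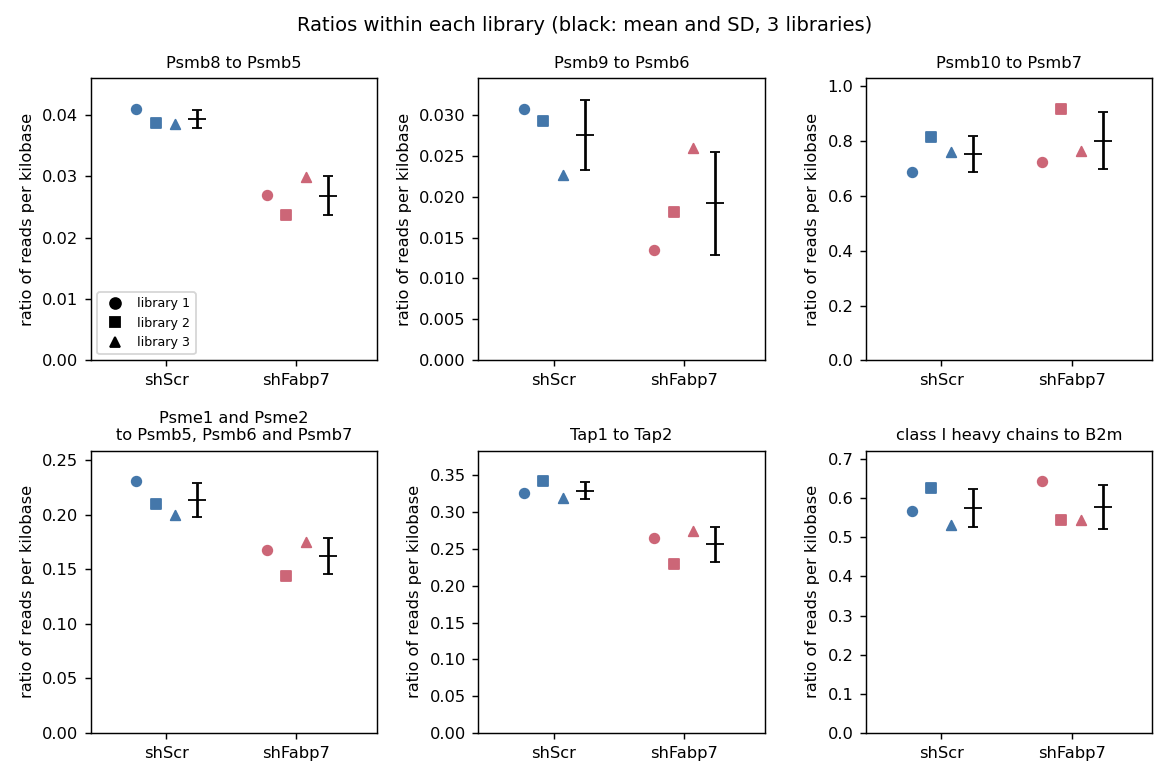
Ratios of reads per kilobase of exon within each library, for each inducible over its constitutive proteasome subunit, the activator over the constitutive subunits, Tap1 over Tap2, and class I heavy chains over B2m. Coloured marks are libraries and black marks the mean and SD of 3. The Psmb8 to Psmb5, activator and Tap1 to Tap2 panels show shFabp7 below shScr without overlap, and the other panels overlap.

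Class II genes were scarce in this tissue, with 7 to 99 reads per library for Cd74 and the surface chains. Cd74, the invariant chain that guards the class II groove, had 99, 67 and 68 reads in shScr and 76, 39 and 58 in shFabp7. H2-Aa, an alpha chain, had 34, 24 and 27 reads in shScr and 23, 7 and 19 in shFabp7. H2-Ab1, its beta chain, had 32, 18 and 51 reads in shScr and 27, 13 and 18 in shFabp7. H2-Eb1, the beta chain of the E molecule, had 41, 28 and 25 reads in shScr and 29, 14 and 17 in shFabp7. In each of these 4 genes shFabp7 library 2 was the lowest library. After scaling to CPM, shFabp7 library 1 lay within the shScr range in each, for H2-Aa at 1.37 CPM against 1.28 to 1.85 CPM.

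The log2 fold changes were -0.34 (SE 0.27) for Cd74, -0.70 (SE 0.39) for H2-Aa, -0.70 (SE 0.43) for H2-Ab1 and -0.54 (SE 0.36) for H2-Eb1. Single libraries moved these values: with each left out in turn, Cd74 ran from -0.62 (without shFabp7 library 1) to -0.12 (without shScr library 1) and H2-Aa from -1.06 (without shFabp7 library 1) to -0.36 (without shFabp7 library 2). H2-Ab1 ran from -1.05 (without shFabp7 library 1) to -0.27 (without shScr library 3), and H2-Eb1 from -0.94 (without shFabp7 library 1) to -0.30 (without shScr library 1). H2-DMa and H2-DMb1 encode the chaperone that exchanges class II peptides. H2-DMa was the most abundant gene of the class II set per kilobase (6.88 CPM per kilobase in shScr and 6.53 in shFabp7) and had a log2 fold change of -0.07 (SE 0.15). H2-DMb1 had 56, 33 and 33 reads in shScr and 19, 21 and 33 in shFabp7, a value of -0.65 (SE 0.31), and 22.7% of its 50-base runs occur in H2-DMb2. All 6 class II values lay below 0 with a median of -0.60, the SEs were large, and 0 had an unadjusted p under 0.05. The median was -0.32 when shScr library 1 was left out and -0.21 with both it and library 3 left out, where the H2-Ab1 value was 0.22.

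Summed over Cd74, H2-Aa, H2-Ab1 and H2-Eb1, levels were 11.2, 7.29 and 9.33 CPM in shScr and 9.26, 4.44 and 5.98 CPM in shFabp7. The markers of meningeal fibroblasts summed to 149, 115 and 148 CPM in shScr and to 116.5, 84.3 and 90.8 CPM in shFabp7, and the 6 libraries stood in the same order in both sums. Of the 6 fibroblast markers 5 had values below 0, with a median of -0.40. Border macrophage markers summed to 23.8 to 29.5 CPM in shScr and 20.9 to 24.0 CPM in shFabp7, with 4 of the 6 tested below 0. In the sums of border macrophage markers and of choroid plexus and ependyma markers the order was the same, except that shScr libraries 1 and 3 changed places. The other marker lists stood in other orders. Microglia markers, for example, summed to 488, 491 and 507 CPM in shScr and to 444, 431 and 477 CPM in shFabp7. The likeness of these orders was given no test. The part of these cell types in the class II values was not tested. Among B cell markers, Ms4a1 had 0 reads in all libraries, and Cd79a had 2 to 10 reads. The immunoglobulin gene Ighm, which made up most of that list, had 202 to 331 reads in shScr and 496 to 670 in shFabp7, the opposite direction to the class II genes. Of the 6 dendritic cell markers, Itgax, Xcr1, Ccr7 and Clec9a had too few reads to test. Flt3 and Zbtb46 were tested and lay on either side of 0, Flt3 at 0.18 (SE 0.22) and Zbtb46 at -0.16 (SE 0.14). This list summed to 20.7 to 30.6 CPM in shScr and 23.3 to 26.7 CPM in shFabp7, with overlap.

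**Figure D4:**
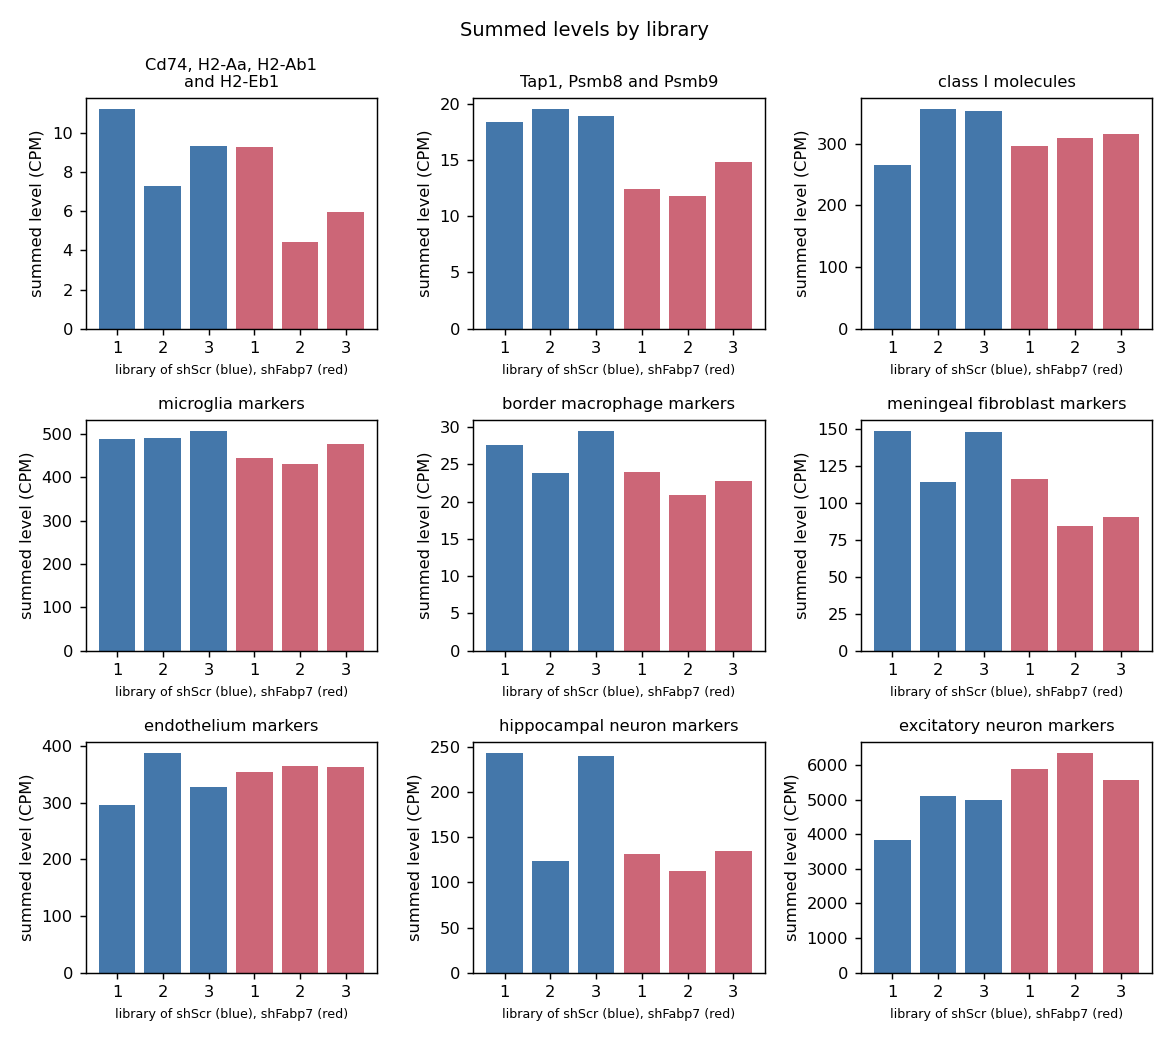
Summed levels in CPM of class II genes, of Tap1, Psmb8 and Psmb9, of the 8 class I molecules and of 6 marker lists, with 1 bar per library (blue shScr, red shFabp7, axes from 0). Class II genes and meningeal fibroblast markers are highest in shScr library 1 and lowest in shFabp7 library 2. The sum of Tap1, Psmb8 and Psmb9, which leaves out their neighbour Tap2, is 18.4 to 19.5 CPM in shScr and 11.8 to 14.8 CPM in shFabp7. Hippocampal neuron markers are high in shScr libraries 1 and 3.

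Tap1, Psmb8 and Psmb9, which lie side by side with Tap2 on chromosome 17, summed to 18.4, 19.5 and 18.9 CPM in shScr and to 12.4, 11.8 and 14.8 CPM in shFabp7. Tap2 was left out of this sum, and its groups overlapped at a log2 fold change of -0.17 (SE 0.11). The genes were summed with earlier results known, so the sum adds no support beyond their own values. In this sum shScr libraries 1 and 3, which were high in hippocampal markers, lay just below shScr library 2. Without shScr libraries 1 and 3, which leaves 1 shScr library that is assumed to vary like the others, the values of Tap1, Psmb8 and Psmb9 were -0.67, -0.49 and -0.59. The microglia markers summed to 488 to 507 CPM in shScr and 431 to 477 CPM in shFabp7, without overlap. Of the 10 markers, 8 lay below 0, with a median of -0.15. At an unadjusted edgeR p under 0.05, 3 were lower and 0 higher, where 8.32% of all genes were lower. The part of microglia in the values of Tap1, Psmb8 and Psmb9 was not tested. Monocyte and neutrophil markers summed to at most 1.97 CPM in every library, and 0 of the 6 had enough reads to test.

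The regulators of both systems had low levels. Nlrc5, the class I transactivator, had 58, 65 and 92 reads in shScr and 43, 44 and 59 in shFabp7. After scaling this was 3.16, 3.46 and 5.02 CPM against 2.57, 2.68 and 3.15 CPM, so the lowest shScr and highest shFabp7 libraries nearly touched, without overlap, with a log2 fold change of -0.47 (SE 0.23). The Nlrc5 value was -0.24 without shScr library 3. Ciita, the class II transactivator, had 43, 70 and 45 reads in shScr and 69, 57 and 54 in shFabp7 with a value of 0.29 (SE 0.25), above 0 where the class II genes were below it. Its value was -0.10 without shScr libraries 1 and 3. Rfx5, a DNA-binding factor of both promoter types, averaged 24.9 ± 1.01 CPM in shScr and 22.9 ± 1.67 CPM under shFabp7 (n = 3 each, SD), and 26.8% of its exon sequence overlaps a gene on the opposite strand.

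Ordered by level per kilobase of exon in shScr, B2m came first of the 33 at 138 CPM per kilobase, followed by Calr at 124, Canx at 75.4, Psmb5 at 71.8 and Pdia3 at 62.0. Among inducible genes, Psmb10 stood at 15.1, Psme2 at 13.4, Psme1 at 13.2, Psmb8 at 2.82, Tap1 at 1.45 and Psmb9 at 0.901. Class II surface chains stood at 0.818 to 1.43, and the regulators Ciita and Nlrc5 came last at 0.541 and 0.457. Neighbours such as Psme2 and Psme1, or Ciita and Nlrc5, did not differ beyond their spread. Each length covers all annotated exons of the gene and not its main transcript, so this order is approximate.

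Of 5 further lists of the pathway, 58 of 64 genes were tested and 0 passed in edgeR, where 0.116% of all genes passed. At an unadjusted p under 0.05, 8 were lower and 3 higher, where the shares of all genes were 8.32% and 8.44%. DESeq2, which called 4.11% of all genes, called 2 of the list genes, Ifi30 and H2-Q2. H2-Q2, a class I-like gene that had too few reads for the edgeR test, had 61, 14 and 7 reads in shScr and 2, 2 and 3 in shFabp7, so most of its reads came from shScr library 1. Among 15 other class I-like genes, 11 were tested, 4 with values below 0, and the most abundant, H2-T22 and Fcgrt, had log2 fold changes of 0.06 and 0.03. Among 12 other class II and endosomal genes, 10 were tested and 7 lay below 0, with a median of -0.18. Its most abundant members, the cathepsin genes Ctsb and Ctsd, had 0.21 and 0.05. Chosen after their values were seen, Ifi30, a thiol reductase of endosomes, had 88, 128 and 102 reads in shScr and 47, 52 and 63 in shFabp7 (log2 fold change -0.88, SE 0.19, edgeR adjusted p 0.0891, and 0.0241 with DESeq2), and the proteases Ctss and Lgmn had -0.21 and -0.20. Of the 15 other proteasome genes 13 lay below 0, with a median of -0.07, and Psmb4 and Psme3 had -0.01 and -0.04. The interferon-gamma pathway list had 7 of 17 below 0 and a median of 0.08, with Jak1 at 0.08 and Creb1 at 0.24. All 5 costimulation genes lay below 0, with Icam1 at -0.38 and Cd274 at -0.45.

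Set side by side, the medians of the log2 fold changes were -0.08 for class I molecules, -0.15 for peptide supply and loading, -0.51 for inducible subunits, -0.41 for the activator, -0.06 for constitutive subunits, -0.60 for class II genes and -0.12 for regulators, against -0.0065 over all genes tested. The inducible, activator and constitutive medians were -0.49, -0.34 and 0.01 without shScr libraries 1 and 3. With sets of 2 to 8 genes these medians describe the members and were given no test.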

How the data were processed

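RNA from mouse cortex was sequenced in 6 libraries, 3 per shRNA. Per the labels' protocols, 0.5 µg of total RNA went into each with the Illumina Stranded mRNA Prep. Groups and replicate numbers come from the sample titles. The deposited values are raw counts of reads per gene, and the columns follow featureCounts output, per the file headers. The build GRCm39 and the tools STAR 2.5.2b, Trimmomatic 0.36, DESeq2 and Subread 1.5.2 are listed, without role or order, in the submitters' processing notes. Gene spans matched GENCODE M21 on GRCm38 for 44858 of 49056 shared IDs (91.4%), so coordinates are read as GRCm38. The strand setting and the handling of reads that match several genes are not given in the sources used here. Symbols came from a reference table for 48970 of 49315 genes, and genes without one held at most 0.114% of a library's counts.

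Genes were filtered with filterByExpr (17185 left) and tested with edgeR 4.0.16 in R 4.3.3: TMM scaling, robust quasi-likelihood fit on the group alone, two-sided, Benjamini-Hochberg adjustment over all genes tested, threshold 0.05. Levels are TMM-scaled CPM, with the SD over libraries. Each SE was obtained from the log2 fold change and the F statistic, as their quotient after taking the root of F. The scripts were tested on simulated counts. Runs of 50 bases were compared between GENCODE M21 transcripts, and promoters are those of RefSeq on GRCm38.p6. The genes and lists were chosen with earlier results of these data known. All 33 genes are accounted for, and of each further list the 2 most abundant genes are named where none passed. Alternatives were DESeq2 1.42.0, factors by RLE or the upper quartile, leaving out the filter or asking for 1 CPM in 3 libraries, the replicate number as a block, sex as a covariate, libraries left out, and, added after seeing the data, the mean log2 CPM of the hippocampal markers (with 0.5 added) as a covariate.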

Additional observations from a re-analysis of the deposited data

How the results depend on the processing

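Of 495 values (33 genes under 15 alternatives each), 467 kept their direction and their side of the threshold, and 21 of the 33 genes kept their sign in every alternative. The number of genes called among all tested was 20, and it was 699 with DESeq2, 1617 with no filter, 7 with sex as a covariate, 4 with the hippocampal score, 120 without shScr libraries 1 and 3, and 0 to 900 with each library left out in turn. It was 0 without shFabp7 library 2 or 3, 10 without shFabp7 library 1, 182 without shScr library 1 and 900 without shScr library 2. Genes of the antigen presentation set called were 3 with no filter and 0 in each other alternative. With the replicate number as a block 629 genes were called over all and 0 of the set. Same-numbered libraries had correlations of deviations of 0.0960, 0.187 and 0.0550, and not every library correlated best with its own number, so the numbers were not taken to pair them. Without shScr libraries 1 and 3 the group medians were -0.27 for class I molecules, -0.11 for peptide supply and loading and -0.21 for class II genes. With the hippocampal score the median for peptide supply was -0.12. With each library left out, medians ran from -0.15 to -0.095 for peptide supply, -0.55 to -0.42 for inducible subunits, -0.15 to -0.0035 for constitutive subunits and -0.78 to -0.32 for class II genes. The ratios of group means for the 3 proteasome pairs and the inducible sum were recomputed with each library left out and without division by gene length. They moved by less than the spread between libraries in all 28 values, which could hardly have come out otherwise. Leaving out 1 of 3 libraries moves a mean by little against that spread, and gene length cancels in the ratio of group means of a single pair.

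Signs turned for H2-Q7, which was 0.0017 with DESeq2, 0.0284 with the replicate block and 0.0359 with sex, for H2-M3, which was -0.0943 with sex, and for H2-DMa, which was 0.0409 with the hippocampal score. Without shScr libraries 1 and 3, H2-T23 was -0.11, Tapbpl 0.0281, Psmb10 -0.0566, Psmb6 0.0147, H2-Ab1 0.22 and Ciita -0.10. With each library left out, values ran from -0.21 to 0.0399 for H2-D1, -0.24 to 0.27 for H2-Q7, -0.10 to 0.11 for H2-M3, -0.20 to 0.0230 for B2m, -0.0607 to 0.0936 for Psmb10, -0.0039 to 0.0892 for Psmb5 and -0.20 to 0.0463 for H2-DMa. The cause of these shifts was not tested. H2-Ab1, H2-Aa, H2-Eb1, H2-DMb1 and Cd74, at 7 to 99 reads per library, had the largest SEs of the 33 genes.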
